A study of Bos taurus with 16 samples.

Results

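Precision-cut liver slices are thin slices of fresh liver kept alive in culture medium, in which hepatocytes stay beside the Kupffer cells (resident macrophages), sinusoidal endothelial cells, stellate cells and bile duct cells of the organ. The libraries described here are the untreated controls (CTR) of a study of PPAR agonists in bovine slices: 3 of 16 libraries, from cows 581, 576 and 567, with 1 library per cow. They were chosen by their labels and not by any measured value. The slices came from liver biopsies of primiparous Jersey cows after calving, taken with a trocar, and had been cultured for 18 h in glucose-supplemented William's Medium E with 0.800% DMSO, the solvent that every group of the study received. The agonist groups of the same cows received 100 µM WY-14643 (PPARα), 50 µM GW-501516 (PPARδ) or 100 µM rosiglitazone (PPARγ) for the same time, and their 9 libraries appear here only as values beside those of the controls, with no contrast between treatments. The slices are a bulk sample, so fewer cells of a type and less RNA per cell cannot be told apart, and a biopsy does not fix which cells a slice holds.

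The liver makes most proteins of blood plasma, holds and releases glucose, turns ammonia into urea, oxidizes fatty acids to ketone bodies, makes bile acids and clears drugs. After calving, dairy cows draw on body fat for milk, and much of it reaches the liver as free fatty acids. Hepatocytes form most of the tissue mass and carry the plasma protein and metabolic genes, whereas the other cell types are known by small sets of their own markers.

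Libraries were primed on the 3′ ends of polyadenylated RNA, so that reads per transcript should depend little on its length. Molecular barcodes are not named in the sources used here, so counts are taken as reads, and levels are compared between genes as counts per 1000000 counts (CPM) outside RN18S1, the 18S ribosomal RNA. RN18S1 took 45.8, 37.5 and 37.2% of the counts in genes, and the totals outside it were 1668896, 2087353 and 2527333. Values of the 3 libraries are given throughout in the order of cows 581, 576 and 567, and means with their SD over n = 3 cows. At these depths 1 count stood for 0.396 to 0.599 CPM, and 10 CPM for 16.7 to 25.3 counts. Of all reads, 46.5, 39.3 and 41.8% lay in no annotated gene. The control library of the fourth cow, 574, held only 652064 counts outside RN18S1, with 80.7% of its reads in no annotated gene, and stayed out of all means. With 1 library per cow, no difference between cows could be set against replicates of a cow.

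Hepatocyte markers were present throughout, as the tissue label implies. All 22 hepatocyte markers had counts in each of the 3 libraries and 19 of them reached 10 CPM in each. Of 12 skeletal muscle markers, muscle being one of the tissues a biopsy needle crosses, 9 had no count in any of the 3 libraries, among them ACTA1, CKM, MYH1 and MB. ADIPOQ and LEP, the hormones that define adipocytes, also had none. Among all 28785 genes, 11478 had no count in any of the 3 libraries. A missing count does not by itself mean that a transcript was absent, as described below for RPS9.

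A small number of genes held much of the counts. The 10 most abundant genes of each library took 17.9, 8.87 and 11.4% of the counts outside RN18S1, and the 100 most abundant 35.6, 26.6 and 29.3%. The library of cow 581 was the most concentrated: 364 genes made up 50% of its counts, against 597 in cow 576 and 513 in cow 567. Between 12932 and 14887 genes had at least 1 count, 11007 of them in all 3 libraries. Of the 28785 genes, 6638 reached 10 CPM in every library, 1365 reached 100 CPM and 72 reached 1000 CPM. Counts of list members given below are to be read beside these shares of all genes. Protein-coding genes, as RefSeq classes them, held 97.5 ± 0.0441% of the counts and long non-coding RNAs 0.621 ± 0.0304%.

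The 30 genes with the highest mean were led by the machinery of respiration, protein folding and translation. They comprised 12 genes encoded in mitochondrial DNA, 4 cytosolic ribosomal proteins, the chaperones HSP90AA1, HSP90AB1, HSPA5, HSP90B1 and HSPB1, both ferritin chains (FTH1 and FTL), and the actin-related TMSB4X and ACTB. ALB, which encodes serum albumin and is the gene most closely tied to hepatocytes, followed at rank 31, at 1722, 1385 and 3842 CPM. COX3, the most abundant gene, stood 24.5, 11.4 and 5.87 times above ALB in the same library. LOC783680, a protein-coding gene without a descriptive name, stood at rank 15 with 6784, 4542 and 5088 CPM.

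**Figure D1:**
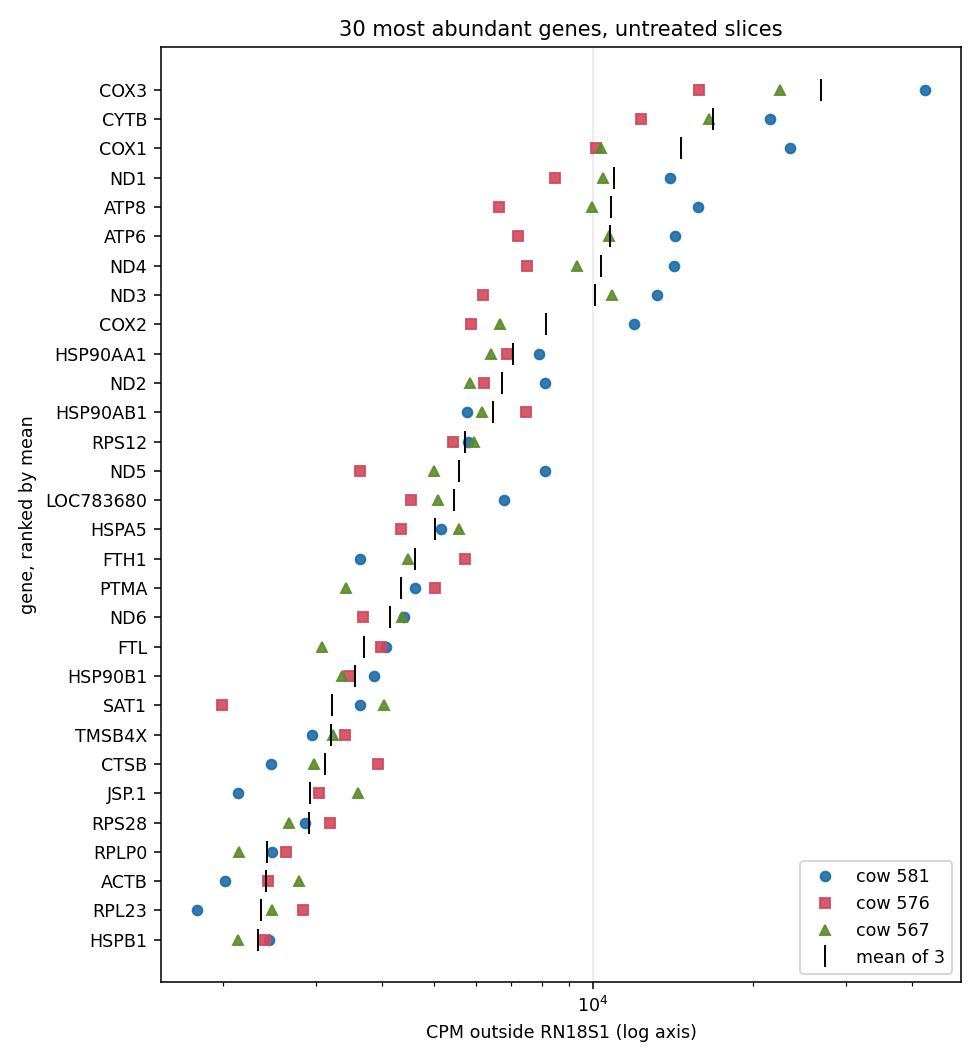
CPM outside RN18S1 (log axis) of the 30 genes with the highest mean over the untreated slices of 3 cows, with a coloured marker for each cow's library and a black tick for the mean. COX3 leads at 42273, 15818 and 22557 CPM for cows 581, 576 and 567, and for most mitochondrially encoded genes the library of cow 581 lies to the right of the other 2.

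Transcripts of the mitochondrial genome made up the largest group. Their 13 protein-coding genes, all subunits of the respiratory chain or of ATP synthase, summed to 19.2, 9.39 and 12.3% of the counts. The 3 subunits of cytochrome c oxidase (COX1, COX2 and COX3) held 35.6 ± 4.39% of that sum, and the subunits of NADH dehydrogenase (the ND genes) 36 ± 3.11%. COX1 lay at 23493, 10147 and 10369 CPM, and CYTB, the cytochrome b of complex III, at 21614, 12315 and 16524 CPM. Cow 581 was highest in both, and cows 576 and 567 were nearly level in COX1 but not in CYTB. The other mitochondrially encoded genes of the 30 (ND1, ND2, ND3, ND4, ND5, COX2, ATP6 and ATP8) had means from 5589 CPM for ND5 to 10968 CPM for ND1. ND6 varied less between cows, at 4403, 3676 and 4356 CPM. ND4L was the exception of the group, at 183, 136 and 142 CPM, but its reading frame overlaps that of ND4 (14222, 7491 and 9313 CPM), as that of ATP8 overlaps ATP6, so that the split of reads within these pairs is uncertain. The 81 nuclear genes of the same complexes summed to 6061, 7877 and 7205 CPM, and among them cow 581 was the lowest, the reverse of its place in the mitochondrially encoded sum. COX4I1 of complex IV led them with ATP5MG and ATP5F1B of ATP synthase, with COX4I1 at 472, 396 and 509.6 CPM.

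Cytosolic ribosomal proteins were the next group. Of 86 genes, 75 reached 100 CPM in every library, and their sum was 6.36, 7.43 and 7.22% of the counts. RPS12 led them at 5807, 5442 and 5957 CPM, followed by RPS28 at 2858, 3185 and 2669 CPM and RPLP0, a protein of the ribosomal stalk, at 2476, 2637 and 2146 CPM. RPL23 had 1789.8, 2829.9 and 2476 CPM. These levels differed little between cows next to the mitochondrial genes. RPS9 had no count in any of the 3 libraries, although it is a component of every ribosome. In the agonist libraries of the same cows it reached at most 5.83 CPM, so a level of 0 in this table does not by itself mean that a transcript was absent from the cells.

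Genes of protein folding were high in all 3 libraries and alike between cows. The 13 heat shock genes summed to 21694, 21074 and 19283 CPM, and 11 of them reached 100 CPM in each library. HSP90AA1 and HSP90AB1 encode the inducible and the constitutive cytosolic HSP90. HSP90AA1 lay at 7911, 6870.4 and 6403 CPM. HSP90AB1 lay at 5789, 7481 and 6181 CPM, so that the order of the pair was not the same in all cows. HSPB1, a small heat shock protein, had 2442, 2405 and 2137 CPM. The HSP70 genes were lower, HSPA8 at 1339.8, 857 and 904 CPM and the inducible HSPA1A, which has a near-identical copy, at 1031, 584 and 843 CPM. Chaperones of the endoplasmic reticulum were as even: the genes of its stress response summed to 15117, 13872 and 15068 CPM, a spread of 4.8% (SD over mean). HSPA5, the main chaperone of the endoplasmic reticulum, led them with 5164, 4334 and 5574 CPM, ahead of HSP90B1 with 3861, 3462 and 3359 CPM. ATF4, the transcription factor of the integrated stress response, had 1487, 1316 and 1368 CPM. Its target DDIT3 was far lower, at 131, 268 and 166 CPM, and the spliced factor XBP1 lay at 201, 173 and 230.3 CPM. Proteasome subunits summed to 6115, 5387 and 5169 CPM, and 15 of 39 reached 100 CPM in each library. PSMD7, PSMA7 and PSMC1 led them, with PSMA7, a subunit of the core particle, at 708, 904 and 661 CPM.

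Iron storage and defence against oxidants formed another abundant group. FTH1 and FTL, the heavy and light chains of ferritin, had 3638, 5738 and 4478 CPM and 4058, 3970.1 and 3076 CPM, respectively. Together they made up 69.2 ± 9.39% of the list of iron, copper and metallothionein genes. HMOX1, the heme oxygenase that frees iron from heme, had 2123, 1293 and 857 CPM, and the metallothionein MT1A 1454, 291 and 503 CPM. Both were highest in cow 581, while FTH1 was lowest there. HAMP, the hepatic hormone of iron balance, was present at a low level, 24, 41.2 and 36 CPM. PRDX1 (a peroxiredoxin) lay at 1371, 886 and 814 CPM, TXNRD1 (thioredoxin reductase) at 999, 749 and 796 CPM and SRXN1 (sulfiredoxin) at 828, 668 and 668 CPM, and the 3 genes, all known targets of the oxidant-sensing factor NRF2, had their highest value in cow 581. NQO1, another such target, lay at 29.96, 96.3 and 22.6 CPM and was highest in cow 576. SAT1, which acetylates polyamines for their export, was among the 30 most abundant genes at 3631, 1993 and 4038 CPM.

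Actin and its partners were abundant as well. ACTB had 2022, 2435 and 2784 CPM. TMSB4X and TMSB10, which bind free actin, had 2951, 3399 and 3235 CPM and 1302, 1658 and 1267 CPM, respectively. All 24 genes of the list of cytoskeleton and wound response except LGALS3 reached 10 CPM in each library. KRT8 and KRT18 are the keratin pair of hepatocytes. KRT8 lay at 187, 248 and 395 CPM and KRT18 at 195, 214 and 644 CPM, both highest in cow 567. VIM, the vimentin of mesenchymal cells and macrophages, was highest in cow 576, at 171, 1268 and 238 CPM. Lysosomal cathepsins summed to 5860.2, 9309.9 and 6709 CPM, led by CTSB (2464, 3919.8 and 2969 CPM) and by CTSS (1439, 1757 and 1303 CPM), the cathepsin of antigen-presenting cells, and CTSZ (793, 1222 and 977 CPM). MHC class I transcripts were also high: JSP.1 had 2141, 3037 and 3594 CPM, BOLA 2149, 2324 and 1545 CPM and their light chain B2M 1829, 1681 and 1902 CPM. Reads of the near-identical MHC class I genes may be split between gene names, so the levels of JSP.1 and BOLA are uncertain one by one. PTMA, which encodes the small nuclear protein prothymosin alpha, stood at rank 18 with 4602, 5023 and 3422 CPM.

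Plasma proteins were the leading group among genes particular to hepatocytes, and their level was set apart in cow 567. The 18 carrier and transport proteins summed to 6284, 5213 and 13486 CPM. ALB made up 27.4, 26.6 and 28.5% of that sum, a near-constant share across a range of sums. TF (transferrin) had 1082, 1011 and 1821 CPM, and ORM1 (orosomucoid, an acute phase carrier) 554, 604 and 1868 CPM. AMBP, the precursor of alpha-1-microglobulin and bikunin, had 584, 446 and 1511 CPM, and the fetuin AHSG 385, 399 and 986 CPM. In each of these genes cow 567 was the highest and the other 2 libraries lay close together. SERPINA6, the cortisol carrier, had no count in the 3 libraries, and SELENOP (selenoprotein P) only 12.6, 10.5 and 12.3 CPM.

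Coagulation genes followed the same order of cows, at 3199, 2320.2 and 6292 CPM in sum. KNG1 (kininogen) led them at 919, 771 and 2236 CPM. The 3 fibrinogen chains FGA, FGB and FGG had means of 453 ± 188, 514 ± 190.1 and 288 ± 90.8 CPM. F2 (prothrombin) had 198, 201 and 791 CPM and PLG (plasminogen) 86.9, 86.7 and 332 CPM, and both were nearly 4 times higher in cow 567 than in the others, whose values were almost equal. F7, HRG and F13B were at the other end of the list, with F13B at 4.19, 2.87 and 1.19 CPM. Complement genes summed to 2626, 1970.4 and 4573 CPM. C3, on which all complement pathways converge, led them at 747, 439.8 and 1299 CPM, ahead of the proteases C1R (333, 439 and 943 CPM) and C1S (134, 136 and 488 CPM). All 22 complement genes had counts in each library and 17 reached 10 CPM in each. Among the protease inhibitors, SERPINA1 (alpha-1-antitrypsin) lay at 525, 244 and 658 CPM, SERPING1 (the C1 inhibitor) at 402, 341 and 637 CPM and SERPINA3-1 at 182, 122 and 422 CPM; the bovine SERPINA3 genes are close copies of each other, so reads may be split among them.

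Acute phase proteins spanned a wide range of levels. HP (haptoglobin), a main acute phase protein of cattle, lay at 233, 123 and 133 CPM, and SAA2, a serum amyloid A, at 249.9, 205 and 387 CPM. SAA3 and SAA4 were far lower, SAA3 at 12.6, 3.35 and 4.75 CPM, and LCN2, an iron-scavenging lipocalin, had 5.39, 2.87 and 0 CPM. The list's highest values after ORM1 were those of IL1RN, the antagonist of the interleukin-1 receptor, at 327, 1725 and 179 CPM, and of the endotoxin co-receptor CD14 at 177, 594 and 131 CPM, both set by cow 576.

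Apolipoproteins summed to 1357, 1298 and 2439 CPM. APOE led by its mean, at 412, 512 and 767 CPM, followed by APOB, the structural protein of very-low-density lipoprotein, at 374, 230.4 and 795 CPM and APOA2 at 264, 279 and 372 CPM. APOA1, the main protein of high-density lipoprotein, reached only 74.3, 65.6 and 116 CPM, below APOE and APOA2 in each library. APOC3 (4.79, 1.92 and 19.4 CPM), APOM (2.996, 0.958 and 10.3 CPM) and MTTP (10.2, 1.44 and 5.54 CPM), which loads lipid on to APOB, were low, and of these values that of APOC3 in cow 567 was the highest. LCAT, the plasma enzyme that esterifies cholesterol, had no count in the 3 libraries.

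Enzymes of intermediary metabolism were present throughout but at low levels: 197 genes of metabolism held 1.04, 1.21 and 1.31% of the counts, against 3.68, 3.49 and 3.44% for 31 chaperone and stress genes and 1.67, 1.49 and 3.11% for 104 plasma protein genes. The order of chaperone over metabolic genes held in all 3 libraries with no overlap.

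In glucose metabolism, the glycogen phosphorylase PYGL had 216, 240.5 and 381 CPM and FBP1, a regulated step of gluconeogenesis, 143, 104 and 126 CPM. PCK1, the cytosolic carboxykinase, was lower at 41.9, 51.7 and 55.8 CPM, and G6PC, which releases free glucose, at 21.6, 35.9 and 22.9 CPM. PC (pyruvate carboxylase), the entry of lactate carbon to gluconeogenesis, had 12, 16.8 and 20.2 CPM. Of the genes of the urea cycle, ASS1 was highest at 147, 169.6 and 126 CPM, CPS1, which fixes ammonia, had 104, 62.3 and 57.8 CPM, and ARG1 95.3, 47.9 and 81.9 CPM. OTC was low at 8.39, 11 and 22.6 CPM, and ASL reached 46.7, 8.62 and 14.2 CPM. GOT2, the mitochondrial aspartate aminotransferase, had 96.5, 196 and 186 CPM. The whole list of urea cycle and nitrogen genes was level between cows, at 928, 969 and 1021 CPM, as was amino acid catabolism at 1027, 1044 and 1049 CPM. HPD and HGD of tyrosine breakdown lay at 279, 252 and 393 CPM and 167, 185 and 147 CPM, respectively, and SDS (serine dehydratase) at 191, 159.5 and 105 CPM. TAT, the first enzyme of tyrosine breakdown, was lower and uneven, at 49.1, 5.27 and 21 CPM, and GNMT, an abundant methyltransferase of mammalian liver, had no count.

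Fatty acid oxidation was represented along the whole pathway. All 19 mitochondrial genes had counts in each library and 16 reached 10 CPM in each, next to 11007 and 6638 of 28785 among all genes. Their sum was 1412, 1998 and 1870.0 CPM. CPT1A, the gate for entry of fatty acids to mitochondria, had 209.7, 364 and 179 CPM, ACADS 244, 252 and 349.8 CPM and ECHS1 215, 232 and 185 CPM. CPT2 was the lowest of the list at 1.8, 6.71 and 11.5 CPM. In peroxisomes, CAT (catalase) had 164, 167 and 65.7 CPM and SCP2, a carrier of sterols and lipids, 98.3, 127 and 119 CPM. The ketone body genes were modest: ACAT1, which joins acetyl groups, had 73.1, 75.2 and 58.6 CPM and the monocarboxylate carrier SLC16A1 115, 108 and 87.8 CPM, while BDH1, which makes 3-hydroxybutyrate, had no count.

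PLIN2, the coat protein of lipid droplets in liver, was the most abundant gene of lipid storage, at 721, 1312 and 1231 CPM. G0S2, an inhibitor of triacylglycerol breakdown, had 154, 275 and 267 CPM, and the phosphatidate phosphatase LPIN2 153, 132 and 211 CPM. Other genes of that list were low: DGAT1, which closes triacylglycerol synthesis, lay at 4.79, 5.75 and 10.7 CPM and DGAT2 at 0, 7.19 and 9.89 CPM, and PNPLA3 and CIDEC had no count. Of the list, 4 of 19 genes reached 10 CPM in every library, a share near that of all genes (6638 of 28785). Synthesis of fatty acids was low too, with 15, 41.7 and 55.4 CPM for FASN and 8.99, 28.3 and 38.8 CPM for SCD (ruminants are known to make fatty acids mainly in adipose tissue). ME1, ELOVL5 and ACLY led that list, with ACLY, the ATP citrate lyase, at 40.1, 89.6 and 34.4 CPM. Cholesterol genes were higher, with SC5D at 155, 119.8 and 244 CPM and CYP51A1 at 139, 127 and 160.2 CPM, enzymes of the late sterol steps, and with 14 of 21 at 10 CPM or more in each library.

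Bile acid genes were at the low end. The importer SLC10A1 had 42.5, 65.6 and 64.9 CPM, the export pump ABCB11 36, 70.9 and 49.9 CPM and the uptake carrier SLCO1B3 85.7, 53.7 and 25.7 CPM. CYP8B1, which sets the kind of bile acid made, had 17.4, 18.2 and 23.3 CPM. Among the drug-metabolizing genes, GSTA1 (a glutathione transferase) led by its mean, at 265, 356 and 299.9 CPM, ahead of SULT1A1 (a sulfotransferase) at 181, 243 and 124 CPM and CYP3A4 at 127, 170.1 and 148 CPM. CYP2E1 had 102, 38.8 and 126 CPM, CYP1A1 was uneven at 6.59, 37.8 and 0.396 CPM, and CYP1A2 was low at 3.6, 5.75 and 14.6 CPM. Reads of CYP and GST genes that are close copies may be split between names.

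Genes of both ends of the liver lobule were seen. The periportal genes (near the incoming blood) summed to 1370.4, 1029 and 1508 CPM, and a single gene made up 61.1% of the mean sum. The pericentral genes summed to 451, 585 and 842 CPM, with 57.8% of the mean sum from the leading gene. They were led by OAT (ornithine aminotransferase, 148, 361 and 577 CPM) and GLUL (glutamine synthetase, 186, 147 and 118 CPM). LGR5 and AXIN2, pericentral targets of Wnt signalling known from mouse liver, reached no more than 5.99 CPM, and the ammonia channel RHBG had no count. These 2 lists were drawn up after the values had been seen.

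**Figure D2:**
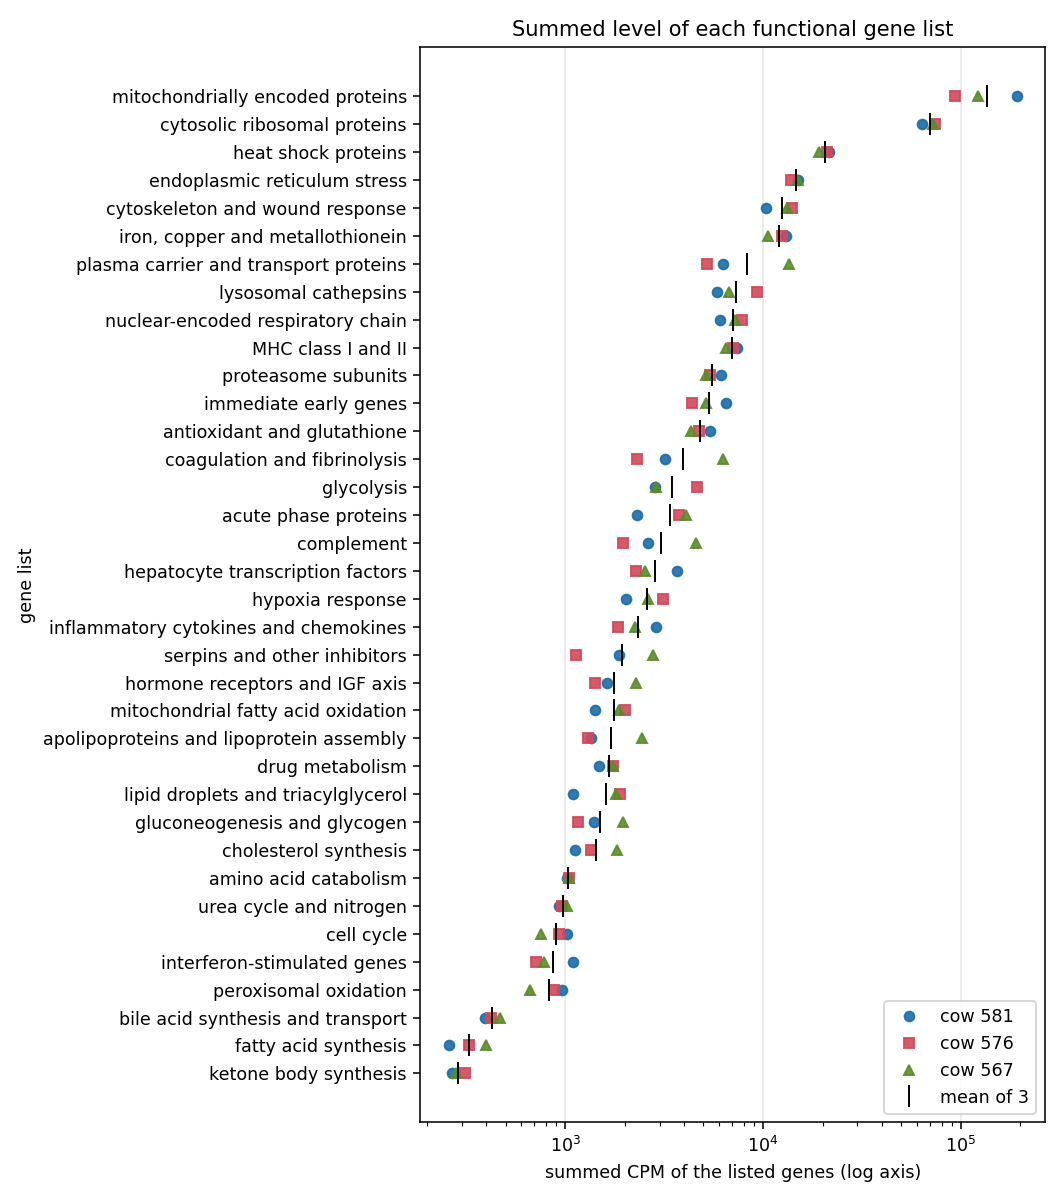
Summed CPM (log axis) of each functional gene list in the untreated slices of 3 cows, ranked by the mean, with a coloured marker per cow and a black tick for the mean. Mitochondrially encoded, ribosomal and chaperone genes head the ranking, the lists of plasma proteins show cow 567 to the right of the other 2, and bile acid, fatty acid and ketone body genes stand last.

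Several of the transcription factors that set hepatocyte identity were low. HNF4A lay at 19.2, 34.5 and 4.75 CPM, FOXA2 at 8.99, 13.4 and 41.2 CPM and ONECUT1 at 3.6, 6.71 and 12.3 CPM. FOXA1 had no count in the 3 libraries, CEBPA 1 count in all, and CEBPB was seen in cow 567 alone at 5.14 CPM. FOXA3 was the highest of the FOXA genes at 74.9, 49.8 and 168 CPM. PROX1, a homeobox factor of hepatocytes and lymphatic endothelium, stood far above the rest of the list at 2584, 1173 and 1115 CPM, followed by CEBPD, a stress-responsive member of the C/EBP family, at 338, 238 and 241 CPM and ATF5 at 155, 158 and 241 CPM. Of 28 factors, 13 reached 10 CPM in each library, a larger share than the 6638 of 28785 among all genes.

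Because the study concerned the PPAR, lipid-sensing nuclear receptors, their baseline levels bear on it. PPARA, the isotype of fatty acid oxidation, had 24.6, 58.4 and 75.2 CPM. PPARD had 10.2, 53.2 and 17.4 CPM and PPARG, the isotype of fat cells, 5.39, 19.6 and 0.791 CPM. PPARA was the highest of these isotypes in each library, and cow 576 had the highest PPARD and PPARG. RXRA, their partner in binding DNA, lay above PPARA in each library, at 72.5, 108 and 102 CPM. Other genes of the RT-qPCR panel of the study were read as well. FABP1, the fatty acid binding protein of liver, had 469, 676 and 656 CPM, and PDK4, the kinase that turns off pyruvate dehydrogenase, had 385, 476 and 281 CPM. PPARGC1A, a coactivator of PPARA, had 85.1, 57 and 103 CPM and ACADVL, of long-chain fatty acid oxidation, 81.5, 126 and 200.2 CPM. HES6 (4.19, 5.75 and 26.1 CPM) and LIPC, the hepatic lipase (2.4, 6.23 and 21.8 CPM), were low and highest in cow 567. The paper describes PPARGC1A and HES6 as undetectable by sequencing, and the PPAR and LIPC as very low or undetected in most samples. In the counts read here, all 12 genes of the panel had counts in each of the 3 libraries, some of them few. LIPC had 4, 13 and 55 counts, and the paper filtered out transcripts with raw counts of 4 or fewer. LIPC and PPARG were thus low here as well. The clear difference is in PPARGC1A and HES6, which had counts here, and its reason was not tested. The reference genes of that assay spanned a wide range: GAPDH had 422, 799 and 451 CPM, UXT 7.79, 41.7 and 16.2 CPM and MRPL39 21, 21.6 and 1.19 CPM. ANGPTL4, a secreted target of the PPAR, had 134, 263 and 152 CPM.

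In the axis of growth hormone, IGF2 was the most abundant gene at 1027, 545 and 1457 CPM, above IGFBP3 (147, 238 and 154 CPM), IGFBP1 (111, 84.8 and 165 CPM) and IGF1 (57.5, 57.5 and 38 CPM). IGF2, a growth factor best known from fetal life, thus exceeded IGF1, the one that growth hormone induces in liver, in each library. GHR, the growth hormone receptor, had counts only in cow 567 (3.17 CPM), IGFBP2 and IGFALS had none, and AGT (angiotensinogen) had none either. INSR, the insulin receptor, had 33.6, 53.7 and 74 CPM and the glucagon receptor GCGR 22.8, 21.1 and 46.3 CPM.

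Transcripts of immediate early genes, which respond within minutes to stress or growth signals, were present in all 3 libraries. JUN had 2215, 1229 and 1512 CPM, KLF6 1342, 1139.7 and 1573 CPM and IER3 1094, 715 and 640.2 CPM, and their list summed to 6532, 4387 and 5149 CPM. FOS, the partner of JUN, was far lower at 34.2, 30.2 and 21.4 CPM, and EGR1 lay at 84.5, 27.3 and 48.3 CPM. CDKN1A, the cell cycle inhibitor p21, had 869, 615 and 601 CPM, and the p53 target list, drawn up after the values had been seen, summed to 1669, 1539 and 1587 CPM with MDM2 at 122, 173 and 202 CPM and GADD45A at 368, 294 and 411 CPM. Genes of division were far below CDKN1A: MKI67 had 0, 23 and 4.35 CPM, TOP2A 3.6, 53.2 and 11.1 CPM and CCNA2 no count. Apart from CDKN1A, 3 of the other 20 cell cycle genes reached 10 CPM in every library, next to 6638 of 28785 among all genes. TOP2A and MKI67 were highest in cow 576. CCND1 (cyclin D1) and PCNA, a clamp of DNA replication and repair, were the highest after CDKN1A, at 26.4, 46.5 and 43.5 CPM and 50.9, 34.5 and 33.6 CPM, respectively. The glycolysis list summed to 2834, 4667 and 2864 CPM, with ENO1 at 416, 717 and 499.7 CPM and PKM, the pyruvate kinase of non-hepatocytes, at 469, 716 and 284 CPM, whereas PKLR, the pyruvate kinase of hepatocytes, had 4.79, 5.75 and 0 CPM. Among genes known to respond to low oxygen, P4HA1 had 394, 595 and 269.9 CPM, PFKFB3 223, 401 and 738 CPM and VEGFA 282, 133 and 238 CPM, while CA9 had no count.

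Inflammatory genes were seen at moderate levels. NFKBIA, the inhibitor and target of NF-κB, led at 730.4, 797 and 645 CPM, followed by TNFAIP3 at 286, 162 and 412 CPM and the neutrophil attractants CXCL8 at 376, 150.4 and 253 CPM and CXCL5 at 351, 277 and 135 CPM. IL1B had 276, 96.8 and 112 CPM, whereas TNF (8.39, 4.31 and 31.3 CPM) and IL6 (7.19, 10.5 and 0.791 CPM) were low and IL10 had no count. Interferon-stimulated genes summed to 1097, 716 and 781 CPM, with MX1 at 207, 83.4 and 105 CPM and IFI27 at 137, 87.2 and 153 CPM; MX1 was highest in cow 581.

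Marker lists of 13 cell types were read in the same libraries. Hepatocyte markers were the highest in every library, with sums of 6607, 4928 and 11212 CPM. Stellate cell and fibroblast markers summed to 831, 2914 and 1064 CPM, Kupffer cell and macrophage markers to 2062, 1564 and 1142 CPM and endothelial markers to 1114, 1212 and 818 CPM, and these 3 ranges overlapped. The mean of the stellate list rested on cow 576: it was 1603 CPM with that library and 948 CPM without it. The sum of hepatocyte markers was 7.95, 1.69 and 10.5 times that of stellate markers and 3.2, 3.15 and 9.82 times that of Kupffer markers. Sums of different lists depend on which genes are in them, so they rank RNA of the markers and not numbers of cells.

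Among macrophage genes, the chains of complement C1q, which Kupffer cells make, were each highest in cow 581 and lowest in cow 576, with C1QA at 407, 138 and 241 CPM, C1QB at 182, 33.1 and 50.6 CPM and C1QC at 248, 82.9 and 123 CPM. CD5L and MARCO, also typical of Kupffer cells, followed that order, CD5L at 249, 13.9 and 109 CPM and MARCO at 137, 15.3 and 34 CPM, and so did the mannose receptor MRC1 at 364, 128 and 207 CPM. CD14 (177, 594 and 131 CPM), MSR1 (29.4, 215 and 55 CPM) and CD68 (122, 196 and 97.3 CPM) were instead highest in cow 576. The macrophage list therefore split into genes that were highest in cow 581 and genes that were highest in cow 576. Of its 15 genes, 11 reached 10 CPM in each library. CLEC4F and TIMD4, defining Kupffer markers in mice, were under 10 CPM in each library.

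Endothelial markers were led by PECAM1 at 466, 582 and 375 CPM. CDH5, the cadherin of endothelial junctions, had 153, 69.9 and 81.1 CPM. Markers of the liver sinusoids were present: STAB2, a scavenger receptor, had 76.7, 66.1 and 51.4 CPM, LYVE1 170.2, 165 and 73.6 CPM and CLEC4G 79.7, 78.1 and 89 CPM. VWF, more typical of larger vessels, had 7.79, 35.9 and 12.7 CPM, and FCN3 had no count. In the stellate list DCN (decorin) had 399, 1784 and 532 CPM, PDGFRA 95.3, 278 and 117 CPM, HGF 103, 265 and 133 CPM and COL3A1 46.7, 170.1 and 73.6 CPM, each highest in cow 576. LRAT, which stores vitamin A in stellate cells, had 0, 0.479 and 6.73 CPM, RGS5 had no count, and ACTA2, the actin of activated stellate cells and smooth muscle, 0, 20.1 and 10.7 CPM.

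Bile duct markers were low. KRT19 and KRT7, the keratins of bile ducts, had 0, 30.7 and 14.6 CPM and 4.79, 2.87 and 5.54 CPM, respectively, EPCAM 4.79, 0 and 15 CPM and SOX9 12, 11 and 6.73 CPM. ANXA4 had 44.3, 94.4 and 111 CPM and CLDN4 38.9, 13.4 and 13.5 CPM. SPP1 (osteopontin), which macrophages also make, supplied 219 of the 379 CPM of that list in cow 576. T and NK cell markers were led by IL7R at 218, 619 and 229 CPM, with CD3D at 37.7, 4.79 and 34.8 CPM and NKG7 at 30.6, 85.3 and 34.4 CPM. CCL5, a chemokine that T cells secrete, had 82.7, 23 and 57.4 CPM. CD4 had 0, 0 and 1.98 CPM and CD8A 10.8, 3.83 and 1.19 CPM. B and plasma cell markers summed to 55.7, 23 and 44.7 CPM, with JCHAIN, the joining chain of antibodies, at 43.1, 15.3 and 11.5 CPM and PAX5, a B cell factor that passed it in cow 567, at 7.19, 1.92 and 12.3 CPM, and MS4A1 and MZB1 had no count. Neutrophil markers summed to 38.3, 142 and 65.3 CPM, with a mean of 82 CPM that was 51.8 CPM without cow 576, with S100A12 at 25.2, 105 and 16.2 CPM, S100A9 at 1.2, 10.5 and 30.9 CPM and MMP9 at 1.2, 12.9 and 17 CPM. S100A12 was the highest of these in cows 581 and 576 and S100A9 in cow 567, with CXCR1 and ELANE at 0. Among erythroid markers HBB had 11.4, 138 and 3.17 CPM, and the mean of the list fell from 57.7 to 10.7 CPM without cow 576. Both alpha-globin genes of the list, HBA and HBA1, had no count in any of the 3 libraries. Platelet, mesothelial and muscle markers summed to no more than 36.8 CPM in any library. The highest muscle value was that of TTN in cow 567, at 36.4 CPM, and without that library the mean of the muscle list was 5.69 in place of 16.1 CPM and that of the mesothelial list 14 in place of 21.3 CPM. In the adipocyte list CFD, the complement factor D, which also stands in the complement list, had 197, 18.2 and 137 CPM and was the main member in cows 581 and 567. FABP4, with 0, 35.5 and 1.19 CPM, was the main member in cow 576.

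**Figure D3:**
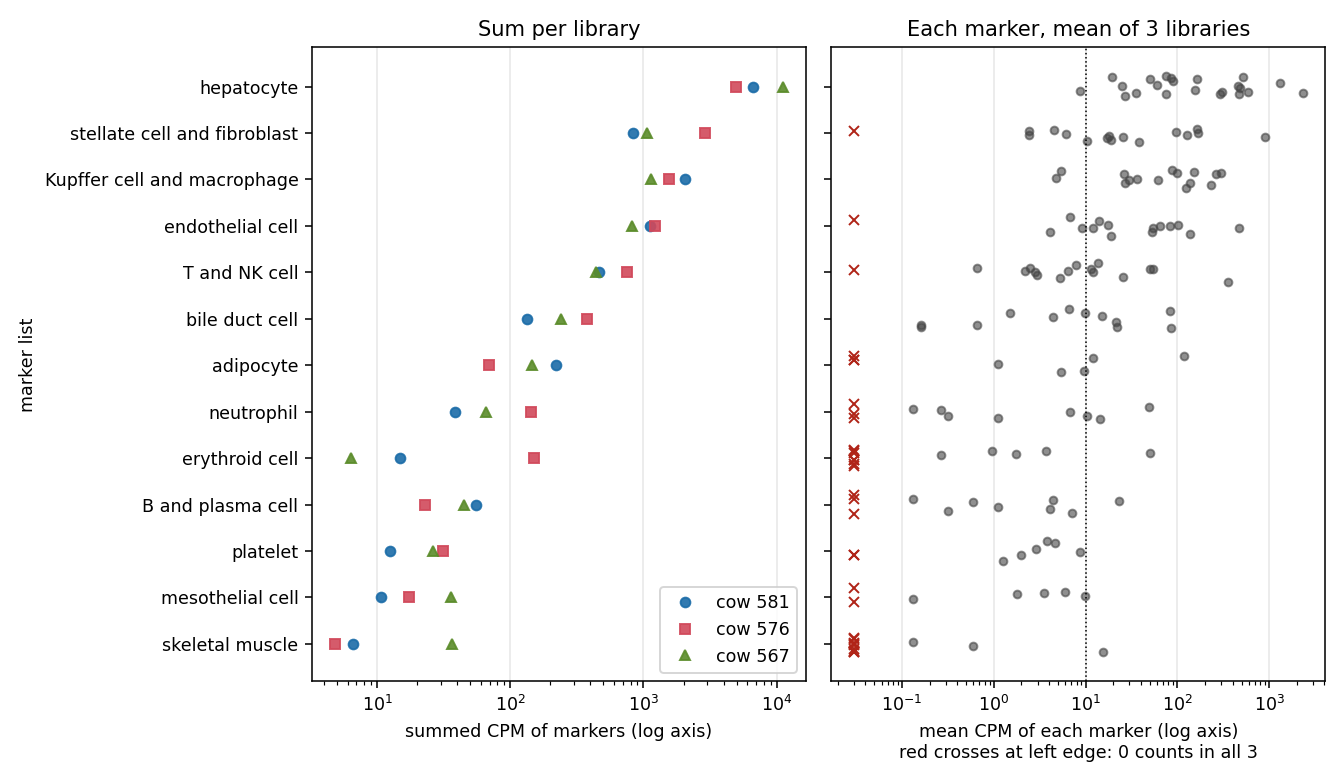
Left, summed CPM (log axis) of the markers of each cell type in the untreated slices of 3 cows, a coloured marker per cow. Right, the mean of each marker gene (grey points, log axis, dotted line at 10 CPM), with red crosses for markers that had no count in the 3 libraries; hepatocyte markers are highest in every library, and most muscle markers lie among the crosses.

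Genes expected in liver were then read one by one. Of 76 such genes, 56 reached 10 CPM in every library, 27 reached 100 CPM and 2, ALB and TF, reached 1000 CPM. Their median over the 3 libraries was 83.2 CPM, against 26.4 CPM for the 10993 named genes with counts in all 3. A further 12 were under 10 CPM in some libraries only: TAT, ASL, UGT1A1, FOXA2, HNF4A, OTC, TFR2, LIPC, APOC3, CYP1A2, MTTP and APOM. The remaining 8 were under 10 CPM in every library, among them SLC2A2, CYP7A1, BAAT, GHR, CEBPA, BDH1 and IGFBP2.

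SLC2A2, the glucose transporter of the hepatocyte membrane, had 2.4, 7.67 and 8.31 CPM. The exact 95% Poisson intervals of these values were 0.653 to 6.14, 4.38 to 12.4 and 5.14 to 12.7 CPM, so the upper bounds of cows 576 and 567 passed 10 CPM and that of cow 581 did not. CYP7A1, the rate-limiting enzyme of bile acid synthesis, had 6.59, 1.92 and 9.1 CPM, with intervals of 3.29 to 11.8, 0.522 to 4.91 and 5.77 to 13.7 CPM. The level of CYP7A1 was thus below 10 CPM beyond counting error in cow 576 alone. BAAT, which joins bile acids to taurine or glycine, was seen only in cow 576, at 8.14 CPM from 17 counts (interval 4.74 to 13 CPM), and GHR only in cow 567, at 3.17 CPM from 8 counts (interval 1.37 to 6.24 CPM). The intervals cover counting error only.

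CEBPA, a defining factor of mature hepatocytes, had 1 count, in cow 576. BDH1 and IGFBP2 had none in any of the 3 libraries, where a count of 0 allows a level of up to 1.8, 1.44 and 1.19 CPM (3 counts per library). The agonist libraries of the same cows, which were up to several times deeper, gave low levels for these genes too. BDH1 had 7 counts over all 9, IGFBP2 9 and CEBPA 14, and the highest value among these 3 genes was 1.5 CPM. SLC2A2 ranged over 0 to 11.7 CPM in the agonist libraries, CYP7A1 over 0 to 11.7 CPM, BAAT over 0 to 3.12 CPM and GHR over 0 to 2.91 CPM.

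Some genes of other lists that are known as abundant in liver were at 0 as well. AGT, IGFALS, LCAT and GNMT had no count in the 3 controls, and IGFALS and GNMT had none in the 9 agonist libraries either. Genes that every cell uses were among those at 0 in the 3 controls: NDUFA2, SDHC and COX7B of the respiratory chain, and RPS9. In the agonist libraries NDUFA2 reached 32.2 CPM, COX7B 12.3 CPM and SDHC 9.16 CPM. Reads that lay in no annotated gene outnumbered the counts in genes in each of the 3 libraries, and whether reads of these genes are among them was not tested.

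**Figure D4:**
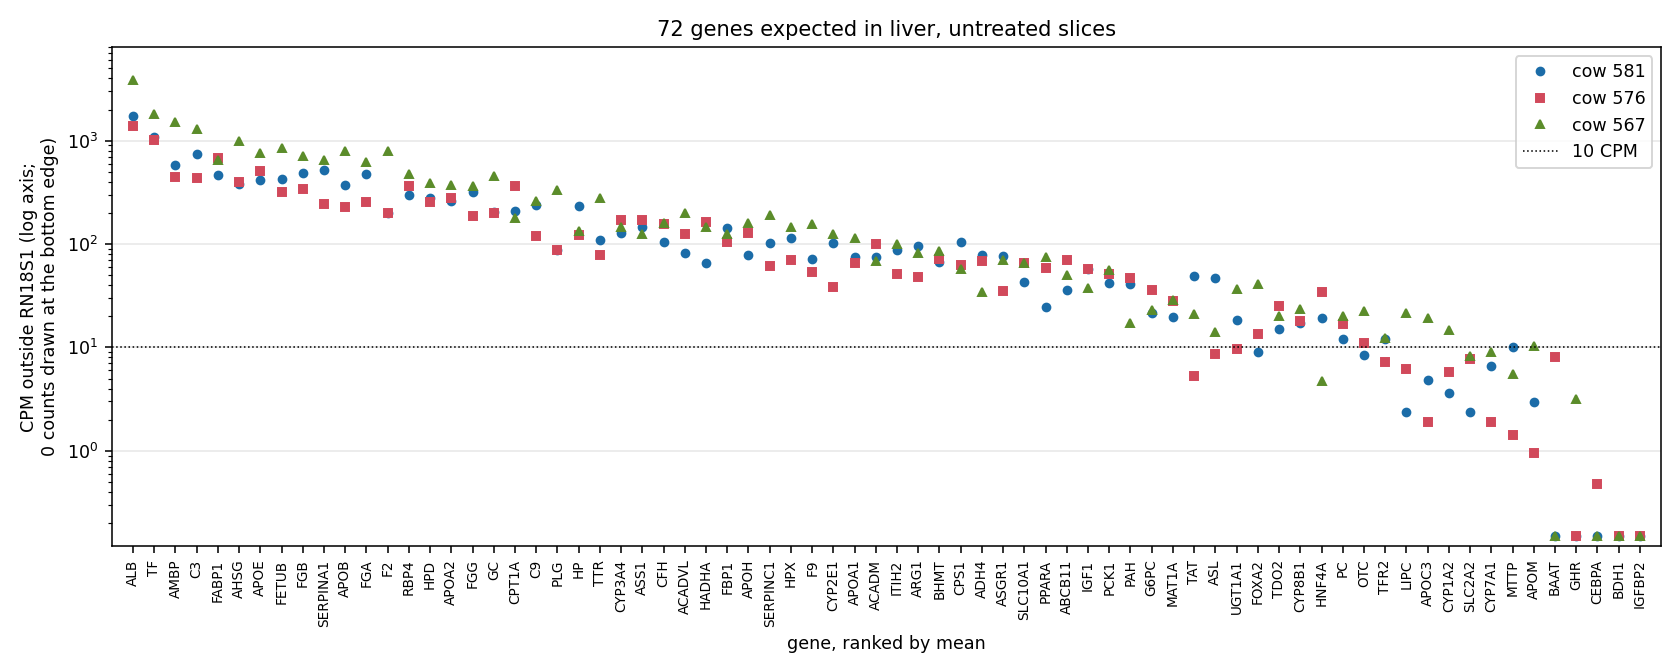
CPM outside RN18S1 (log axis) of 72 of the 76 genes expected in liver, ranked by the mean over the untreated slices of 3 cows, a coloured marker per cow, with values of 0 drawn at the bottom edge and a dotted line at 10 CPM. Plasma proteins stand at the left with cow 567 uppermost, and the genes at the right end, from BAAT onwards, have no count in at least 2 libraries.

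The 3 libraries were alike in their broad order and unlike in detail. Over the 8856 genes with a mean of at least 10 CPM, Pearson's r of log2(CPM + 1), taken across genes, which are not independent replicates, was 0.754 between cows 581 and 576, 0.779 between 581 and 567 and 0.810 between 576 and 567. The median coefficient of variation (SD over mean) of a gene was 51.9% at 10 to 30 CPM, where counting alone gives about 16.9%, and 16% above 1000 CPM, where counting gives 1.74%. The common biological coefficient of variation that edgeR estimated, the spread between cows beyond counting error, was 0.504 for genes of at least 10 CPM and 0.304 for genes of at least 100 CPM. Counts of 0 were spread unevenly over the libraries: 1346 genes had no count in at least 1 library and 20 or more in another, and the library at 0 was that of cow 581, the shallowest, for 892 of them.

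Some genes with a mean of at least 100 CPM had almost the same level in the 3 libraries. RAB2A, a small GTPase of the path between the endoplasmic reticulum and the Golgi, had 241, 241 and 241 CPM, DYNLRB1, a light chain of dynein, 154, 154 and 154 CPM and CALR (calreticulin) 1149.9, 1145 and 1164 CPM. The others of the 10 steadiest were UBL3, PFDN6, ANTXR2, ANKRD12, PLEKHG1, RBBP6 and GNA13, with coefficients of variation of up to 1.27%. Such values are below the spread that counting alone gives at this depth, about 5.73% at 100 to 300 CPM, so the 10 are the low end of many genes and not a class of their own.

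The 10 genes with the largest ratio of the highest to the lowest cow, 0.5 counts added, were ABCA1, CD5L, RNASE6, CFD, RPS26, LOC100848815, IL1RN, TINAGL1, BLA-DQB and FABP5. ABCA1, which exports cholesterol from cells, had 9.59, 248 and 78.3 CPM, a ratio of 25.1. CD5L of Kupffer cells had 249, 13.9 and 109 CPM, a ratio of 17.7. RPS26 stood apart from the other ribosomal proteins with 85.1, 871 and 772 CPM. Cow 581 was thus lowest in ABCA1 and RPS26 and highest in CD5L. The place of CD5L did not extend to the agonist libraries, with 25.7, 10.5 and 35.2 CPM in those of cow 581, 3.68, 0 and 22.4 CPM in those of cow 576 and 7.3, 27.5 and 44 CPM in those of cow 567, whose ranges overlapped. In the 3 agonist libraries of cow 581, RPS26 was at 445, 446 and 185 CPM, against 957, 960.2 and 873 CPM in those of cow 576 and 1373, 648 and 774 CPM in those of cow 567, so that all 4 libraries of cow 581 lay under all 8 of the others. ABCA1 separated the libraries of cow 581 (35.2, 21 and 23.5 CPM with the agonists) from those of cow 576 (405, 146 and 96.4 CPM), but the range of cow 567 (31.1, 57.1 and 45.2 CPM) overlapped that of cow 581. BLA-DQB, an MHC class II gene of a family that differs between animals, had 431, 48.4 and 135 CPM. CFD had 197, 18.2 and 137 CPM, LOC100848815, a gene named only by its number, 215, 21.6 and 75.2 CPM, and TINAGL1, an extracellular matrix protein, 41.3, 369.8 and 113 CPM.

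The library of cow 576 was highest in genes of mesenchymal cells and in several genes of macrophages. VIM had 171, 1268 and 238 CPM, IL1RN 327, 1725 and 179 CPM and DCN 399, 1784 and 532 CPM. S100A4, a calcium-binding protein of motile cells, had 94.7, 827 and 115 CPM, FABP5 52.7, 470.5 and 57.8 CPM and RNASE6 46.1, 341 and 30.9 CPM. Among the slices of cow 576, the library with the PPARα agonist shared this for VIM (1038 CPM), DCN (4199 CPM), IL1RN (3988 CPM) and S100A4 (754 CPM). Those with the PPARδ and the PPARγ agonists were lower in each of these genes, at 348 and 258 CPM of VIM, 373 and 255 CPM of DCN, 238 and 889 CPM of IL1RN and 135 and 87.7 CPM of S100A4. Of these values, that of IL1RN with the PPARγ agonist was above every library of the other 2 cows, and both values of S100A4 were above all of their agonist libraries. FABP5 lay at 92.7, 98.3 and 84.8 CPM in the agonist libraries of cow 576, all above the other 2 cows and all far below its control. The same 2 libraries of cow 576 were low in the plasma proteins VTN (vitronectin) and A1BG: the control had 75.2 and 70.4 CPM and the PPARα agonist library 72.5 and 87.8 CPM, against 681 and 579.6 CPM with the PPARδ agonist. Over the 1887 genes with a mean of at least 100 CPM in the 12 libraries, the control of cow 576 correlated with the PPARα agonist library of the same cow at r = 0.900 and with its other 2 agonist libraries at 0.694 and 0.765, across genes and with log2(CPM + 1). The libraries differ in depth, slice and treatment at once, and the part of each was not tested.

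The library of cow 567 was highest in plasma proteins, as given above for ALB, KNG1, F2 and PLG, and in FST (follistatin, 204, 126 and 718 CPM). The library of cow 581 was highest in mitochondrially encoded genes, MT1A, HMOX1 and PROX1, and it also had the fewest counts and the highest share of RN18S1. Without it, the mean share of mitochondrially encoded genes was 10.8% in place of 13.6%. Of the 1891 named genes with a mean of at least 100 CPM, 409 differed by more than 2 times between the highest and the lowest cow. The highest value was that of cow 576 for 182 of them, of cow 567 for 144 and of cow 581 for 83.

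**Figure D5:**
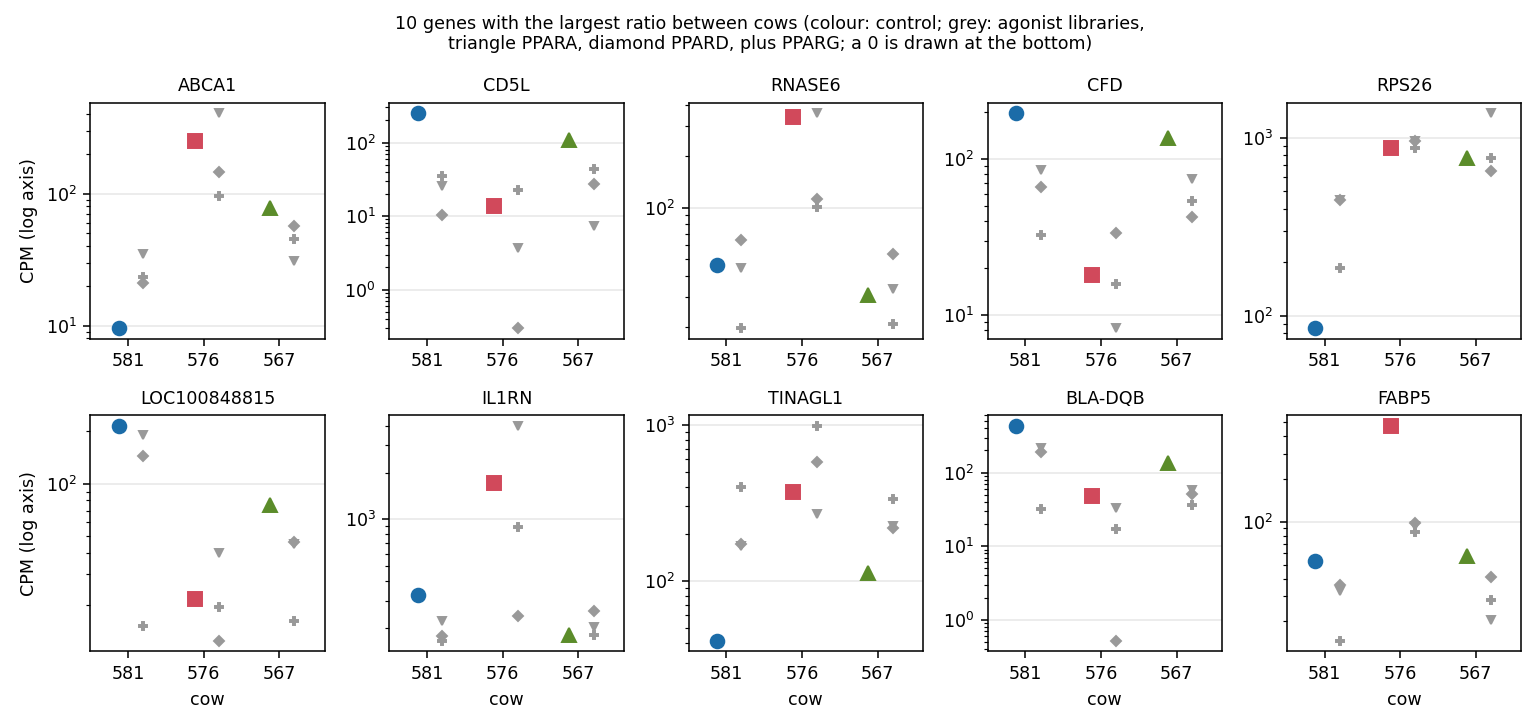
CPM (log axis) of the 10 genes with the largest ratio between cows in the untreated slices, with a coloured marker for the control library of each cow and grey markers for the 3 agonist libraries of the same cow. RPS26 is low in all libraries of cow 581, whereas for IL1RN the control and the PPARα agonist library of cow 576 stand above the rest.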

How the data were processed

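RNA of pooled slices was sequenced with the QuantSeq 3′ mRNA kit. According to the submitters' processing notes and the methods, the authors trimmed reads with Trimmomatic 0.39, aligned them to the bovine build ARS-UCD1.2 with STAR 2.7.1 and deposited 1 table of raw counts per gene. The headers of the deposited table carry STAR's name for its gene counts, whereas the methods name StringTie 2.0, and no source used here gives the strand setting, so reads of overlapping and antisense genes cannot be told apart. The 4 rows of unassigned reads (unmapped, multimapping, outside genes or ambiguous; those outside genes were 39.3 to 46.5% of all reads in the 3 libraries) and RN18S1 were left out, and counts were divided by the remaining total to give CPM (counts per 1000000). Another 26 rows whose names a spreadsheet had turned into dates were counted in the totals and not named.

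Samples were grouped by the treatment label. Levels were described as mean and SD over 3 cows, with exact Poisson intervals (95%) and a floor of 3 counts for single values, both covering counting error only. The biological coefficient of variation came from edgeR 4.0.16 with an intercept alone (R 4.3.3), a step tested on simulated data, and other values from Python 3.11.15 with scipy 1.17.1. DESeq2 1.42.0 gave size factors for an alternative. RefSeq gene classes matched 24699 of the 28785 gene names.

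The gene lists and the members were chosen with earlier results of these data known, and the lists of periportal, pericentral, p53 target, respiratory chain, cathepsin and proteasome genes after the values were seen. Named genes were the 30 most abundant, the 3 most abundant of each list, the expected liver genes under 10 CPM in all 3 libraries, the genes measured by RT-qPCR in the study, and the 10 with the largest ratio and the 10 with the smallest coefficient of variation between cows among genes with a mean of at least 100 CPM; other genes named were picked from the lists after their values were seen, and a few genes that the rule takes are not reported here. Alternatives changed the total (RN18S1 kept, mitochondrially encoded genes left out), the scaling (TMM, DESeq2), the depth (thinning), the filters, and the libraries (each cow left out, cow 574 added).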

Additional observations from a re-analysis of the deposited data

Results flagged for a closer look

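Each summed level was set against the other untreated libraries of the study, 4 with that of cow 574, and a library was picked out where its gap to the nearest other exceeded the 95% critical value of Dixon's test. Of 58 measures tested, 13 had such a library, where chance gives about 1 in 20 for a single measure. The lists share genes and a common total, so the measures are not independent, and most of the 13 come from the library of cow 574. The lists were also chosen with earlier results of these data known, and some, that of p53 targets among them, after the values were seen. The rate of 1 in 20 does not hold for such lists. Among the 3 libraries described, cow 567 stood apart with 13486 CPM of plasma carrier proteins (others 4972 to 6284 CPM). Cow 576 did so with 2914 CPM of stellate cell and fibroblast markers (others 831 to 1064 CPM). Both comparisons include the library of cow 574, and none was made among the 3 described libraries alone. They therefore do not show that either cow is an outlier among those 3.

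The rest came from the library of cow 574, in which far fewer reads lay in genes. The methods of the study state that the postpartum slices of an animal, not named there, had a low RNA integrity number and that it was removed as an outlier, and the part of RNA quality in the values below was not tested. It was higher in metabolic genes: 1718 CPM of urea cycle genes (others 928 to 1021), 1767 CPM of amino acid catabolism (others 1027 to 1049), 559.8 CPM of ketone body genes (others 268 to 313) and 1101 CPM of bile acid genes (others 393 to 470.1). Sums of some marker lists were higher too, each carried mainly by a single gene, with 989 CPM of the skeletal muscle list, of which TTN made up 848 (others 4.79 to 36.8), 215 CPM of the B and plasma cell list, of which PAX5 made up 124 and JCHAIN 0 (others 23 to 55.7) and 178 CPM of the platelet list, of which GP5 made up 129 (others 12.6 to 31.1). It was lower in heat shock proteins at 6878 CPM (others 19283 to 21694), in genes of endoplasmic reticulum stress at 3842 CPM (others 13872 to 15117), in MHC genes at 495 CPM (others 6485 to 7355) and in p53 targets at 569 CPM (others 1539 to 1669).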

How the results depend on the processing

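Under 14 alternatives, 141 values were recomputed for 15 results. Of these, 122 moved by less than the spread between cows or, for counts of genes and measures of spread, by less than 1.5 times. Outside the settings that left out 1 cow, 77 of 96 values stayed within these limits. With so few cows, leaving out 1 cannot move a mean by the spread between cows, whatever the values. For means, those settings therefore could not show whether a result depends on 1 cow. No result carried a test or a sign to lose. With RN18S1 kept in the total, the 10 most abundant genes of each library held 7.46% of the counts, and the mean sums were 79820 CPM for mitochondrially encoded, 42064 CPM for ribosomal, 12338 CPM for heat shock, 937 CPM for Kupffer cell and 625 CPM for endothelial genes. Because the total is larger, every sum fell by a like factor, those with a wide spread between cows as well: hepatocyte markers to 4564 CPM, plasma carriers to 5041 CPM, coagulation genes to 2377 CPM and stellate markers to 979 CPM. With mitochondrially encoded genes left out of the total, the same share was 5.83%, 736.7 genes on average made up 50% of the counts, ribosomal genes summed to 81012 CPM and heat shock genes to 24026 CPM, and the mitochondrially encoded list has no value there. With the control of cow 574 added, 783 genes made up 50% of the counts, ribosomal genes summed to 59193 CPM and heat shock genes to 17233 CPM, the median coefficient of variation rose from 36.5 to 66.0% and the biological one from 0.504 to 1.09. Without cow 574, among genes with a mean of at least 100 CPM, the median coefficient of variation was 22% and the biological one 0.304. A filter on a count over 4 in at least 1 library kept 15758 genes, against 6638 at 10 CPM in each. TMM and DESeq2 scaling and thinning to the shallowest library moved no value beyond these limits.

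The count of expected liver genes under 10 CPM was 8, and 4 (CEBPA, BDH1 and IGFBP2 among them) at under 1 CPM. It was 12 with RN18S1 kept, 7 without mitochondrially encoded genes, 6 with cow 574 added and 8 to 12 with 1 cow left out. BDH1, BAAT, IGFBP2, GHR and CEBPA were in it under each of these settings at the 10 CPM limit. With 1 cow left out, the mean stellate sum ranged from 948 to 1989 CPM, the hepatocyte sum from 5767 to 8909 CPM, the mitochondrially encoded sum from 108303 to 157201 CPM and the biological coefficient of variation from 0.463 to 0.544. No paired analysis was possible because 1 group is described, with 1 library per cow. Depth limits single values under about 10 CPM, where counting alone gives a relative error above the 16.9% reached at 10 to 30 CPM, and 3 cows limit every mean.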

Other observations

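Long non-coding RNAs were few among the abundant genes. The most abundant of those classed so by RefSeq, LOC100847759, had 478, 714 and 315 CPM at rank 240, and SNHG12, the host of small nucleolar RNAs, 161, 162 and 209 CPM.

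The library most like each control was not always another library of the same cow. Over the same 1887 genes, the control of cow 567 correlated most with the PPARδ agonist library of that cow (r = 0.921) and that of cow 576 with the PPARα agonist library of its own cow, whereas the control of cow 581 correlated most with the control of cow 567 (r = 0.888). These correlations are across genes, on log2(CPM + 1), and carry no test.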
